A study of Homo sapiens with 30 samples.

Results

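The comparison described here is that of small airway epithelial (SAE) cells exposed for 1 h to 10 ug/ml multi-walled carbon nanotubes (MWCNT) with SAE cells that received no particles for the same time. The arrays were chosen by their titles alone, and they are 6 of the 30 arrays of the series, 3 MWCNT and 3 control. Expression was measured with Affymetrix microarrays as log2 values, so that a difference of 1 is a doubling of the signal. The other arrays compared beside these were MWCNT at 100 ug/ml for 1 h, titanium dioxide nanobelts (TiO2-NB) at 10 ug/ml for 1 h, MWCNT at 10 ug/ml for 24 h and the 24 h controls, with 3 arrays each. The rest of the series also entered the fit. These arrays were MWCNT at 100 ug/ml for 24 h, TiO2-NB at 10 ug/ml for 24 h, and TiO2-NB at 100 ug/ml for 1 h and 24 h. All cells, controls included, came from a commercial supplier, had been detached with trypsin, resuspended and plated in flasks, and nanotubes went straight into the medium of the freshly plated cells. The labels name the 3 arrays of a group biological replicates and do not say whether they came from separate donors. The p-values therefore measure the spread between cultures of a group, pooled over the 30 arrays.

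Carbon nanotubes are long, stiff fibres that airway cells meet by inhalation and that they cannot readily degrade. In the first hour after a stimulus, cells commonly switch on immediate early genes such as those of the EGR, FOS and KLF families, many of which are driven by serum response factor (SRF), a regulator that also follows the state of the actin cytoskeleton. The aryl hydrocarbon receptor (AhR) is a ligand-activated factor that induces the cytochrome P450 genes CYP1A1 and CYP1B1 and its own feedback inhibitor TIPARP, and airway epithelium uses it to handle inhaled aromatic compounds.

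At this low dose and early time the response was small. Of 11963 genes tested, 8 passed the threshold of an adjusted p of 0.05, which is 0.0669% of genes, with 5 higher (0.0418%) and 3 lower (0.0251%) in MWCNT cells. The 5 genes that rose were EGR3, GLIPR1, KLF7, RBM47 and VCL, and the 3 that fell were TIPARP, CDC42EP2 and PPP1R14B. In bulk RNA, a change in the share of cells of a kind and a change of RNA per cell cannot be told apart. The median difference over all genes was -0.02, and the differences ran from -0.60 to 1.14. Past a change of 1.5-fold in either direction were 22 genes (0.184%), of which 21 were higher and only TIPARP was lower, and 3 of the 22 passed the test. Before adjustment 1383 genes (11.6%) had a p under 0.05, 596 of them higher (4.98%) and 787 lower (6.58%). Over all genes 44.1% of differences were above 0 and 55.9% below.

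**Figure D1:**
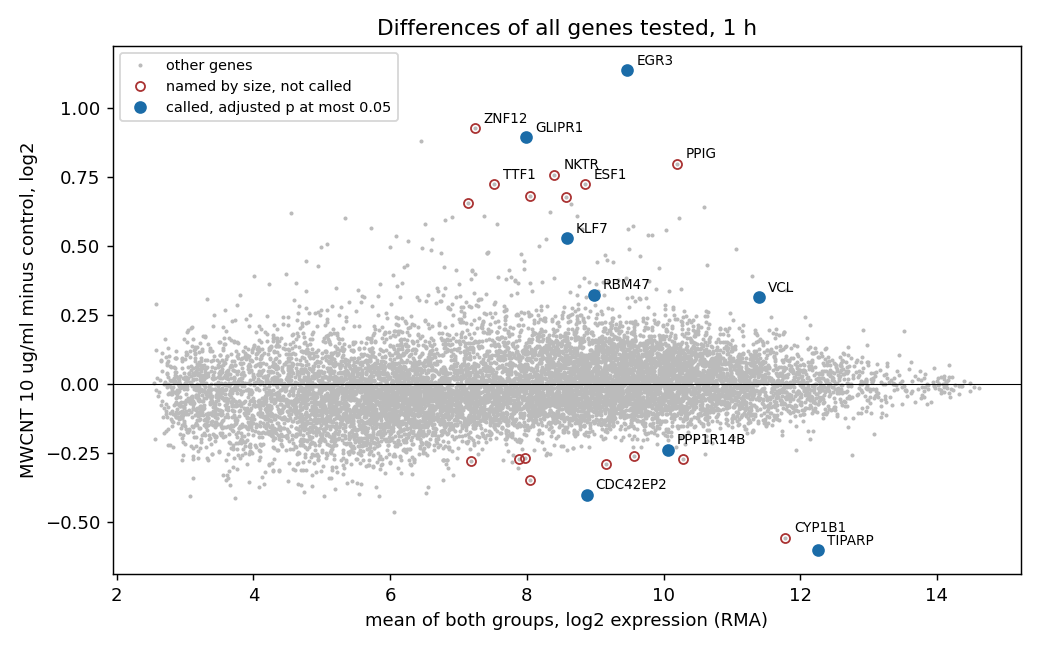
Difference between MWCNT 10 ug/ml and control at 1 h (log2, vertical axis) against the mean level of both groups (log2, horizontal axis), with a point for each of 11963 genes. The 8 genes that passed the test are filled blue, and open red circles mark the genes named by size that did not pass, among which ZNF12 at 0.93 lies above GLIPR1.

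A single array outside the comparison bears on these counts, because all 30 arrays share the estimate of the spread. Replicate 1 of the 24 h controls had a gap between the 3' and 5' ACTB control probe sets of 0.86. In the other 29 arrays it was 0.23 to 0.61, and the measure grows when RNA is shortened. The GAPDH gap did not set this control array apart, at 0.108 against 0.106 in MWCNT 10 ug/ml replicate 2 at 1 h. With replicate 1 of the 24 h controls left out of the fit, 58 genes passed, 51 higher and 7 lower in MWCNT cells. All 8 genes above were among them. With every 24 h array left out, 5 genes passed, of which 3 were among the 8 (TIPARP, KLF7 and EGR3). Of the 6 arrays of the comparison, leaving out any 1 did not end the call of TIPARP or KLF7. It ended that of EGR3 in 2 cases, of VCL in 4, of GLIPR1 and RBM47 in 5, and of CDC42EP2 and PPP1R14B in all 6. The calls of GLIPR1 and RBM47 stood only without control replicate 3, and that of VCL without MWCNT replicate 1 or control replicate 3. Among the 6 arrays of the comparison the ACTB gap was 0.33, 0.43 and 0.40 in MWCNT cells and 0.42, 0.27 and 0.32 in control cells, so the groups overlapped in it. Array medians lay between 7.15 and 7.21 over the series.

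The labelled cell type was checked against marker genes. The epithelial keratins KRT18 and KRT8 stood at 13.12 and 11.86 in MWCNT cells and at 13.24 and 12.01 in control cells, and the adhesion molecule CDH1 at 8.09 in MWCNT cells and 8.03 in control cells, above the table median of 7.18. The other 3 of the 6 epithelial markers measured were below it, with EPCAM at 7.08 and 7.05, CLDN1 at 6.13 and 6.20 and KRT19 at 6.07 and 6.10 in MWCNT and control cells. Of the basal cell markers, DST, ITGA6 and ITGB4 were above that median in both groups, KRT5 and NGFR were close to it, KRT5 at 7.09 in MWCNT cells and 7.29 in control cells, and KRT14 and KRT15 were well below. None of the 7 squamous, 4 secretory, 3 ciliated or 5 endothelial markers measured reached the median in either group. Above it were 2 of 5 alveolar markers, SFTPC at 7.60 in MWCNT cells and 7.68 in control cells and ABCA3 at 7.66 in MWCNT cells and 7.65 in control cells. The same held for 1 of 4 immune markers, CD14 at 7.93 in MWCNT cells and 7.97 in control cells, and for 1 of 6 fibroblast markers, COL1A1 at 7.80 in MWCNT cells and 8.01 in control cells. PTPRC, the pan-leukocyte marker, stood at 3.53 in MWCNT cells and 3.50 in control cells. In total 0 of 47 markers of 9 cell types passed the test, against 0.0669% of all genes.

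The largest change was that of EGR3, a zinc-finger transcription factor of the early growth response family. It stood at 9.76, 10.25 and 10.09 in MWCNT cells, against 9.35, 8.72 and 8.63 in control cells. The MWCNT arrays all lay above the controls, and control replicate 1 was the closest to them. EGR3 rose by 1.14 ± 0.17 (SE; adjusted p = 0.00382), a change of 2.20-fold. It passed in 12 of 15 alternatives, and the call ended without MWCNT replicate 2 (adjusted p = 0.0791), without control replicate 2 (adjusted p = 0.0546) and with only the 2 groups in the fit (adjusted p = 0.299). The other family members differed less. EGR1, already near the top of the scale, averaged 13.69 in MWCNT cells and 13.66 in control cells. NR4A1, an orphan nuclear receptor induced early by many stimuli, was 0.37 higher (adjusted p = 0.21) with no overlap between the groups, while its other probe sets differed by 0.02 and -0.11. Of the 6 EGR and NR4A factors measured, 1 passed the test, against 0.0669% of all genes. The median difference was 0.07, and NR4A3 and EGR4 differed by 0.01 and 0.08.

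The KLF family of zinc-finger factors held the rise with the smallest p, that of KLF7. This factor, known for its part in neuronal differentiation, stood at 8.79, 8.93 and 8.82 in MWCNT cells and at 8.26, 8.25 and 8.44 in control cells. The gap between the groups was wider than the range within either of them. KLF7 rose by 0.53 ± 0.07 (adjusted p = 0.00089), and it passed in 14 of 15 alternative analyses. KLF6, an early response member of the same family, stood at 11.35, 11.27 and 11.31 in MWCNT cells and at 10.55, 10.89 and 11.02 in control cells. That is a difference of 0.49 ± 0.11 with no overlap, which did not pass (adjusted p = 0.17). It did so in 3 of 15 alternatives, over which the adjusted p ran from 0.00251, without replicate 1 of the 24 h controls, to 0.523, and its second bright probe set differed by 0.47. Over the 12 KLF genes the median was 0.13, 1 passed, against 0.0669% of all genes, and 8 were above 0, against 44.1%.

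The promoter of KLF7 is shown for its match to the CArG box, the element that SRF binds. RefSeq (GRCh38.p14) gave 4 promoter windows for KLF7, each from 250 bases before to 50 after an annotated start. One of these, on the minus strand at chr2:207167197-207167496, held 1 match to the box at position -62 from the start, and capitals mark it. Such a match, searched on both strands, occurred in 1.29% of all 35116 windows of that length, and in no window of VCL, TIPARP, CDC42EP2, PPP1R14B or RBM47. The called genes EGR3 and GLIPR1 had no window under their symbols, so their promoters were not searched for any motif.
KLF7: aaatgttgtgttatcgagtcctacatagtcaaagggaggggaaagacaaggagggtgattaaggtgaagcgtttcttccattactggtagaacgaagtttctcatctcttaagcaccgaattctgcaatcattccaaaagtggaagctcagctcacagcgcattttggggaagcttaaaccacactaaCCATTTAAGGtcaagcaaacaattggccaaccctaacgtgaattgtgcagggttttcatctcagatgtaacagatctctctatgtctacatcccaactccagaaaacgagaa

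The FOS and JUN partners of the AP-1 factor gave no called gene among the 8 measured with ATF3, against the background of 0.0669%. The largest differences were 0.38 for FOSB (adjusted p = 0.34), 0.32 for ATF3 (adjusted p = 0.306) and 0.22 for JUN (adjusted p = 0.494), each with all MWCNT arrays above all controls. FOS itself differed by 0.11 and JUNB by less than 0.01. Among 22 further immediate early genes none passed and the median was 0.02, and among 12 feedback inhibitors of the ERK kinase pathway none passed and the median was -0.05. The bright early genes IER2, MYC and DUSP1 differed by 0.03, 0.06 and 0.01.

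Cytoskeletal and adhesion genes supplied 2 of the called genes. VCL encodes vinculin, which ties actin to focal adhesions. It stood at 11.49, 11.65 and 11.51 in MWCNT cells and at 11.21, 11.18 and 11.32 in control cells, without overlap. VCL rose by 0.31 ± 0.06 (adjusted p = 0.0288). Its second probe set, far below the table median at a mean of 4.88, differed by -0.19, and with the mean of both probe sets the difference was 0.06 (adjusted p = 0.793). VCL was 1 of 25 focal adhesion genes, whose median was -0.05. LPP, a zyxin-related adhesion protein, differed by 0.37 without passing (adjusted p = 0.281).

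CDC42EP2, an effector through which the GTPase CDC42 shapes actin filaments, was in contrast lower. It stood at 8.60, 8.65 and 8.77 in MWCNT cells and at 9.05, 8.96 and 9.21 in control cells. All MWCNT arrays were below all controls. CDC42EP2 fell by 0.40 on the log2 scale (SE 0.08; adjusted p = 0.0372), and its other probe set differed by -0.30, also without overlap. The related effector CDC42EP3 differed the other way, by 0.22 (adjusted p = 0.25), and CDC42 itself by 0.05. PPP1R14B, an inhibitor of protein phosphatase 1, also fell, with 9.95, 9.98 and 9.91 in MWCNT cells and 10.13, 10.19 and 10.22 in control cells. The change was small beside the others and the arrays tight, so that -0.24 ± 0.05 passed (adjusted p = 0.0472).

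**Figure D2:**
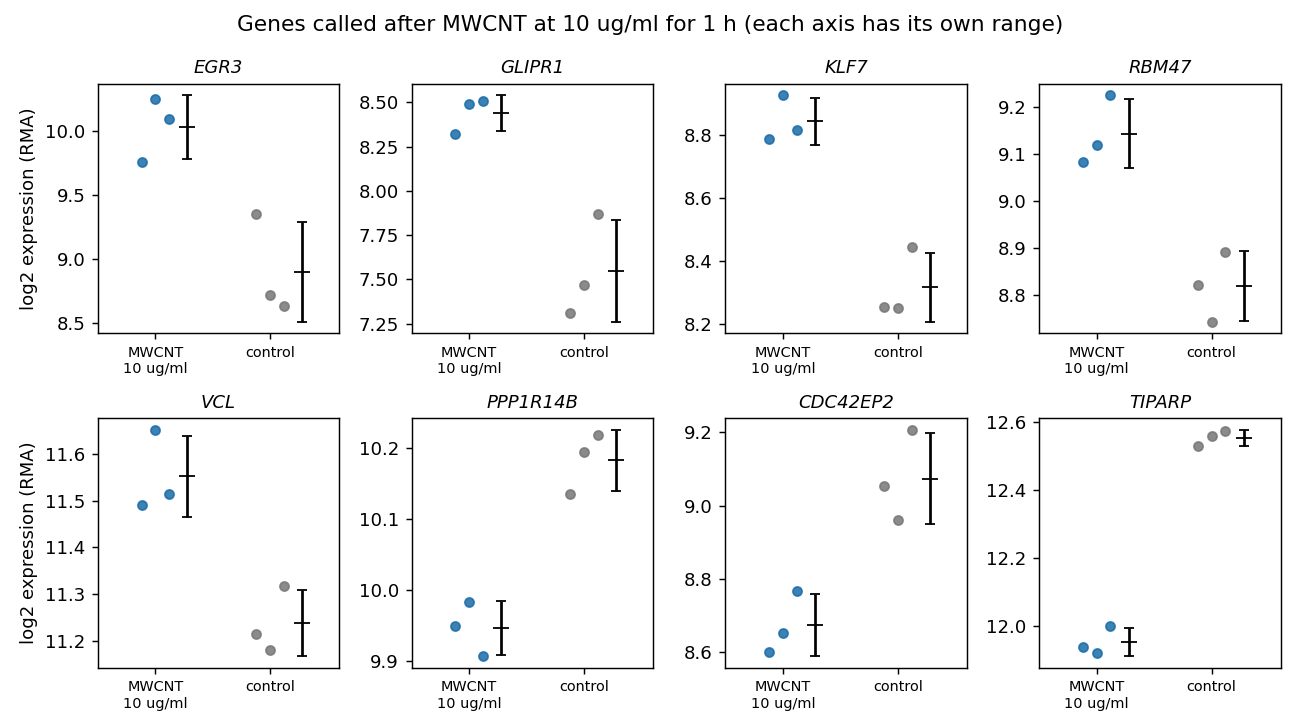
Log2 expression (vertical axes, each with its own range) of the 8 called genes in the 3 MWCNT 10 ug/ml arrays (blue, left) and the 3 control arrays (grey, right) at 1 h, with the group mean and SD in black. No gene has overlapping groups, and EGR3 and GLIPR1 have the largest differences.

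SRF itself stood at 10.12, 10.19 and 10.16 in MWCNT cells and at 9.77, 9.84 and 10.00 in control cells. The groups did not overlap, and the difference of 0.29 ± 0.06 missed the threshold (adjusted p = 0.114). It passed without replicate 1 of the 24 h controls (adjusted p = 0.0289) and with dim genes left out (adjusted p = 0.0421). It passed in 3 of 15 alternatives, over which the adjusted p ran from 0.0222 to 0.495. Of the 21 measured genes of the list of SRF and the actin cytoskeleton none passed, against 0.0669% of all genes. In 9 of them all MWCNT arrays lay above all controls and in 1 below, while over all genes 9.31% lay above and 10.7% below. Like the other lists here, this one was chosen with earlier results of these data known. Deviations of its members correlated at 0.15 on average, against 0.01 over all genes, so they are not independent counts. The median of the list was 0.08. The largest differences in the list were those of the actin-binding gene TAGLN at 0.56 (adjusted p = 0.272), of EPPK1, a cytoskeletal linker, at 0.52 (adjusted p = 0.21), and of FILIP1L at 0.48 (adjusted p = 0.249). The tropomyosins TPM4 and TPM1 differed by 0.29 and 0.24, and ACTB, the cytoplasmic actin, by 0.07.

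CALD1, the actin-binding caldesmon, showed how much the choice of probe set mattered. Its tested probe set, the brightest of 8, differed by 0.12 (adjusted p = 0.495). A dim probe set of the same gene stood at 6.76, 6.84 and 6.86 in MWCNT cells and at 5.52, 5.52 and 5.71 in control cells, a difference of 1.23 ± 0.17 (adjusted p = 0.00187 over all probe sets). It was the largest of the differences that passed when every probe set was tested. CALD1 was singled out after its values were seen.

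Targets of YAP, the co-activator that responds to cell stretch and attachment, gave 0 called of 20, against 0.0669% of all genes. Their median was 0.04, and 17 were above 0, against 44.1% of all genes. Their deviations correlated at 0.12 on average, against 0.01 over all genes, so they are not independent counts. ANKRD1 differed by 0.52 (adjusted p = 0.39), THBS1 by 0.43 (adjusted p = 0.363) and CCN2 by 0.19 (adjusted p = 0.34).

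TIPARP, a mono-ADP-ribosyltransferase that AhR induces and that in turn restrains AhR, gave the largest fall. It stood at 11.94, 11.92 and 12.00 in MWCNT cells and at 12.53, 12.56 and 12.57 in control cells. The 2 groups were each within 0.1 and lay more than 0.5 apart. TIPARP fell by 0.60 on the log2 scale (SE 0.08; adjusted p = 0.00089), a level 1.52-fold lower, and it was the only gene that passed in all 15 alternative analyses. The inducible targets of AhR did not pass. CYP1B1 stood at 11.45, 11.48 and 11.59 in MWCNT cells and at 11.88, 12.08 and 12.22 in control cells. Its groups did not overlap, and the difference was -0.55 ± 0.24 (adjusted p = 0.391), with its other probe sets at -0.36, -0.74 and -0.21. With the 1 h arrays alone in the fit it passed (adjusted p = 0.0306), the lowest of 15 alternatives, of which the highest gave 0.785. CYP1A1, below the table median, stood at 6.24, 6.35 and 6.39 in MWCNT cells and at 6.82, 6.70 and 6.64 in control cells, a difference of -0.39 ± 0.10 (adjusted p = 0.21). The retinaldehyde dehydrogenase gene ALDH1A3 differed by -0.20. The receptor gene AHR and its partner ARNT differed by 0.13 and 0.15. Of 12 AhR pathway genes 1 passed, 9 were below 0, 5 had all MWCNT arrays below all controls, and the median was -0.12. Over all genes 0.0669% passed, 55.9% were below 0 and 10.7% had all MWCNT arrays below all controls.

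The promoter of TIPARP is shown for the AhR core, GCGTG, which AhR and ARNT bind together. RefSeq (GRCh38.p14) gave 3 windows for TIPARP, and the one on the plus strand at chr3:156674340-156674639 held 2 matches, at -208 and -142 from the start. Both read on the opposite strand, so the capitals show CACGC. The other 2 windows held none. Of all windows 36.5% held at least 1 match, so its presence is common, and windows of the called genes CDC42EP2, KLF7, PPP1R14B and RBM47 also held it. The EGR motif GCGTGGGCG contains these letters, and no window of the matched genes held it (0.795% of all windows). The windows were also searched on both strands for the CRE (TGACGTCA, in 1.85% of all windows), AP-1 (TGACTCA, 4.95%) and TEAD (GGAATG, 14%) motifs. The 2 windows printed were chosen after that search, and that of KLF7 also held a TEAD match at -121.
TIPARP: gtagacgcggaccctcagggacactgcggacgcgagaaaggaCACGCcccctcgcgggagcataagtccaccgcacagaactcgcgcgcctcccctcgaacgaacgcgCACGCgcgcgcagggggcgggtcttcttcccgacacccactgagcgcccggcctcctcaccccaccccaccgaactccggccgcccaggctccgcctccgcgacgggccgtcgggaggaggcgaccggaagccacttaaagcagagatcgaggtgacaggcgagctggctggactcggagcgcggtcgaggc

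GLIPR1 and RBM47 complete the genes that rose. GLIPR1, a secreted or membrane-bound cysteine-rich protein known as a target of p53, stood at 8.32, 8.49 and 8.51 in MWCNT cells and at 7.31, 7.47 and 7.87 in control cells. Every MWCNT array was above every control. GLIPR1 rose by 0.89 ± 0.17 (adjusted p = 0.0372), 1.86-fold, and its other probe sets differed by 0.91 and 0.63, both without overlap. None of the other p53 targets measured passed, against 0.0669% of all genes. CDKN1A differed by -0.08, MDM2 by 0.12 and GDF15 by 0.01, and the median of the 13 genes was 0.02. RBM47, an RNA-binding protein of epithelial cells, stood at 9.08, 9.12 and 9.23 in MWCNT cells and at 8.82, 8.74 and 8.89 in control cells. It rose by 0.32 ± 0.06 (adjusted p = 0.0372), again without overlap.

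At the higher dose some of the called genes differed further from control and for others no further difference was detected. Set directly against the 100 ug/ml arrays, 76 genes differed (0.635%), 9 higher (0.0752%) and 67 lower (0.560%) at 10 ug/ml, and 4 of the 8 called genes were among the lower. EGR3 averaged 8.90 without nanotubes, 10.04 at 10 ug/ml and 11.38 at 100 ug/ml, and it was lower at 10 than at 100 ug/ml by a difference of -1.34 (95% interval -1.70 to -0.98; adjusted p = 8.11e-05). GLIPR1 averaged 7.55, 8.44 and 9.84 over the same doses, with a difference of -1.40 between 10 and 100 ug/ml (-1.75 to -1.05; adjusted p = 3.64e-05). KLF7 averaged 8.32, 8.84 and 9.33, with a difference of -0.48 (-0.63 to -0.34; adjusted p = 0.000191). VCL averaged 11.24, 11.55 and 11.92, with a difference of -0.37 (-0.49 to -0.25; adjusted p = 0.000385). For these 4 genes each dose stood clear of the others.

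For the remaining 4 the doses did not differ beyond the test. CDC42EP2 averaged 9.07, 8.67 and 8.71 at 0, 10 and 100 ug/ml, and the difference between the doses of nanotubes was -0.04 (95% interval -0.20 to 0.12). PPP1R14B averaged 10.18, 9.95 and 9.96, with a difference of -0.01 (-0.11 to 0.09), and RBM47 averaged 8.82, 9.14 and 9.20, with -0.06 (-0.18 to 0.07). These intervals leave room for small differences in either direction. TIPARP averaged 12.55, 11.95 and 11.72, and its difference of 0.23 between 10 and 100 ug/ml did not pass (0.06 to 0.40; adjusted p = 0.424), although the arrays of the 2 doses did not overlap. The arrays at 10 ug/ml that called these genes also enter the dose comparison.

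**Figure D3:**
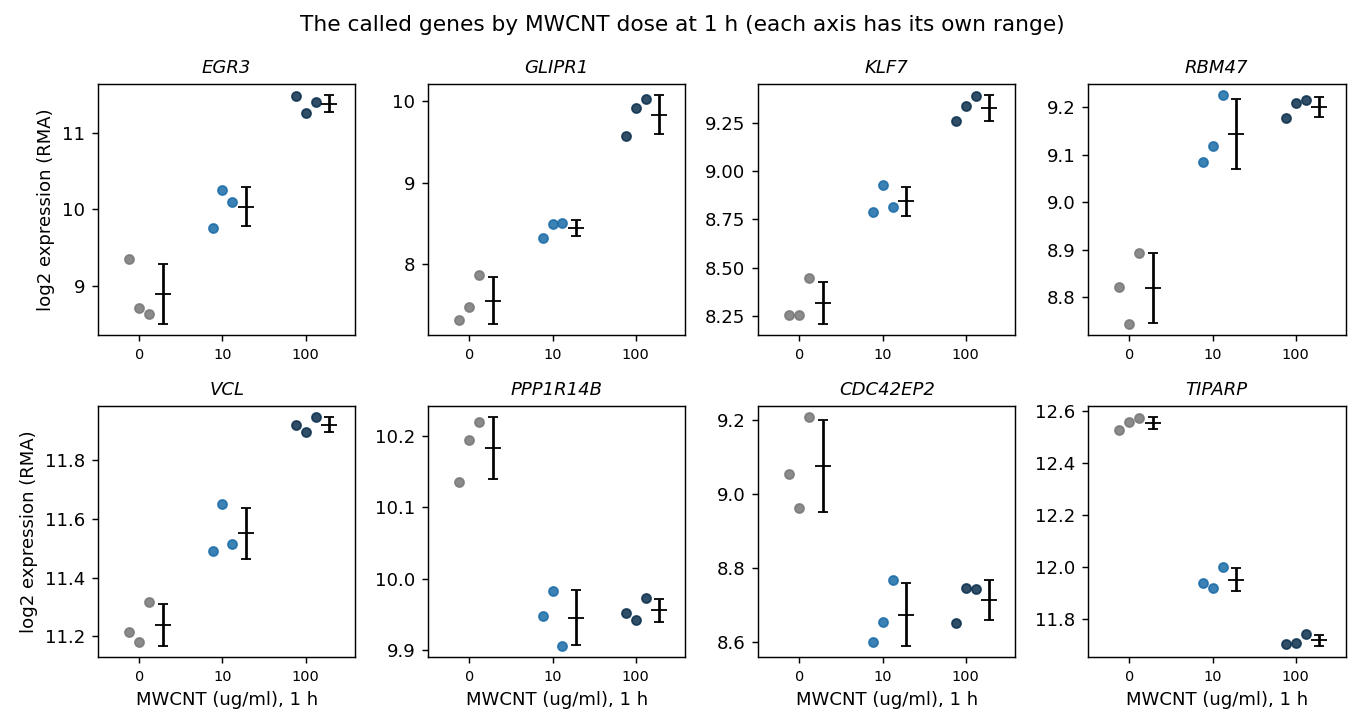
Log2 expression (vertical axes, each with its own range) of the 8 called genes at 0, 10 and 100 ug/ml MWCNT for 1 h, with 3 arrays per dose and the mean and SD in black. EGR3, GLIPR1, KLF7 and VCL are higher at each step, TIPARP is lower at each step, and CDC42EP2, PPP1R14B and RBM47 have similar values at both doses of nanotubes.

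The genes with the smallest p in the dose comparison were mostly ones that had not passed at 10 ug/ml. NR4A1 averaged 8.72, 9.09 and 10.43 at 0, 10 and 100 ug/ml (adjusted p = 5.3e-09 between 10 and 100 ug/ml). PELO, a ribosome rescue factor, averaged 9.81, 9.85 and 10.43 (adjusted p = 1.3e-08). FILIP1L averaged 6.36, 6.84 and 8.26 (adjusted p = 2.2e-06), and SRF averaged 9.87, 10.16 and 10.73 (adjusted p = 6.78e-06). For ARID5B, a chromatin-binding factor, the averages were 10.33, 10.53 and 11.24 (adjusted p = 1.28e-05). NR4A1, FILIP1L and SRF at 10 ug/ml thus stood between control and the higher dose, while PELO was within 0.1 of control.

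Nanobelts at the same dose and time differed from nanotubes in a single called gene (0.00836% of genes), which was TIPARP. It stood at 11.94, 11.92 and 12.00 in MWCNT cells, against 12.81, 12.74 and 12.76 in TiO2-NB cells, a difference of -0.82 (95% interval -0.99 to -0.65; adjusted p = 6.42e-06). With nanobelts TIPARP was 0.22 above control (adjusted p = 0.439), and its 3 TiO2-NB arrays were all above the controls while the MWCNT arrays were all below. CYP1A1 differed by -0.52 between nanotubes and nanobelts, with an adjusted p of 0.0665. The nanotube and nanobelt comparisons share their controls, and their values for the other called genes are given side by side. EGR3 differed from control by 1.14 with nanotubes and 0.88 with nanobelts, GLIPR1 by 0.89 and 1.23, KLF7 by 0.53 and 0.66, VCL by 0.31 and 0.27, and RBM47 by 0.32 and 0.35, and all 5 also passed with nanobelts, where 0.711% of genes passed and 0.702% were higher. Directly compared, the particles differed by 0.26 for EGR3 (-0.10 to 0.61) and by -0.34 for GLIPR1 (-0.69 to 0.01). CDC42EP2 and PPP1R14B differed from control by -0.40 and -0.24 with nanotubes and by -0.10 and -0.06 with nanobelts, and the direct differences of -0.30 (-0.46 to -0.15) and -0.17 (-0.27 to -0.08) did not pass after adjustment (adjusted p = 0.259 and 0.29).

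At 24 h no gene was called between cells with 10 ug/ml nanotubes and the controls of that time. By limma 0 genes passed, the smallest adjusted p was 0.915, and 389 genes (3.25%) had an unadjusted p under 0.05. EGR3 averaged 4.03 in MWCNT cells and 3.98 in control cells at 24 h, far below its 1 h levels of 10.04 and 8.90. These 24 h levels were also well below the table median of 7.18. Background compresses values there, so a difference in EGR3 at 24 h could go unseen. TIPARP averaged 10.02 in MWCNT cells and 10.04 in control cells at 24 h, GLIPR1 7.54 and 7.52, and VCL 11.06 and 11.06. The effect at 24 h minus that at 1 h was -1.09 for EGR3 (95% interval -1.60 to -0.58), 0.57 for TIPARP (0.34 to 0.81) and 0.53 for CDC42EP2 (0.31 to 0.76). Over all genes 0 differences of effect passed, with 679 (5.68%) under an unadjusted p of 0.05 and a smallest adjusted p of 0.282. For none of the 8 genes did the difference between the times pass after adjustment. Without replicate 1 of the 24 h controls 0 genes again passed by limma in either comparison, with 311 genes at 24 h and 704 differences of effect under an unadjusted p of 0.05, and the differences of effect were -1.04 for EGR3, 0.49 for TIPARP and 0.54 for CDC42EP2.

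Many of the largest rises did not pass the test. Of the 10 largest among genes without overlap and with the higher group mean above the table median, 8 were of this kind, ZNF12 at 0.93, PPIG at 0.80, NKTR at 0.76, TTF1 at 0.72, ESF1 at 0.72, ZNF91 and SLC26A2 at 0.68 and ZBTB20 at 0.65, with adjusted p from 0.21 to 0.328. ZNF12, ZNF91 and ZBTB20 encode zinc-finger factors, PPIG and NKTR are large cyclophilins, TTF1 terminates ribosomal RNA transcription, ESF1 acts in ribosomal RNA processing and SLC26A2 carries sulfate. ZNF12 stood at 7.70, 7.56 and 7.84 in MWCNT cells and at 6.56, 6.52 and 7.23 in control cells. The control arrays were the more scattered, with an SD of 0.14 in MWCNT cells and 0.40 in control cells.

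These 8 genes varied together over the 30 arrays of the series. The mean correlation between pairs of them, over deviations from the group means in the 30 arrays, was 0.76, against 0.01 over all genes and 0.12 among the 5 genes that rose. Their mean level was 8.54, 8.56 and 8.76 in MWCNT cells and 7.65, 7.79 and 8.18 in control cells at 1 h. At 24 h it was 9.35, 9.15 and 9.31 in MWCNT cells, and 8.11, 9.14 and 9.30 in control cells. Replicate 1 of the 24 h controls, the array with the wide ACTB gap, thus lay about 1 below its companions. That array enters the correlation, and no value without it is given here. With that array left out, 6 of the 8 passed, ZNF12 with an adjusted p of 0.00399 and NKTR with 0.00251, the lowest over 15 alternatives whose highest were 0.647 and 0.659, and ESF1 and ZNF91 did not. Other probe sets above the table median existed for 4 of the genes, 7 in all, and differed by 0.05 to 0.73 with a median of 0.24, against a median of 0.74 for the tested probe sets of these genes. TTF1 was the extreme, with 0.72 in its tested probe set and 0.05 in the other. The part of RNA quality in these differences was not tested.

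**Figure D4:**
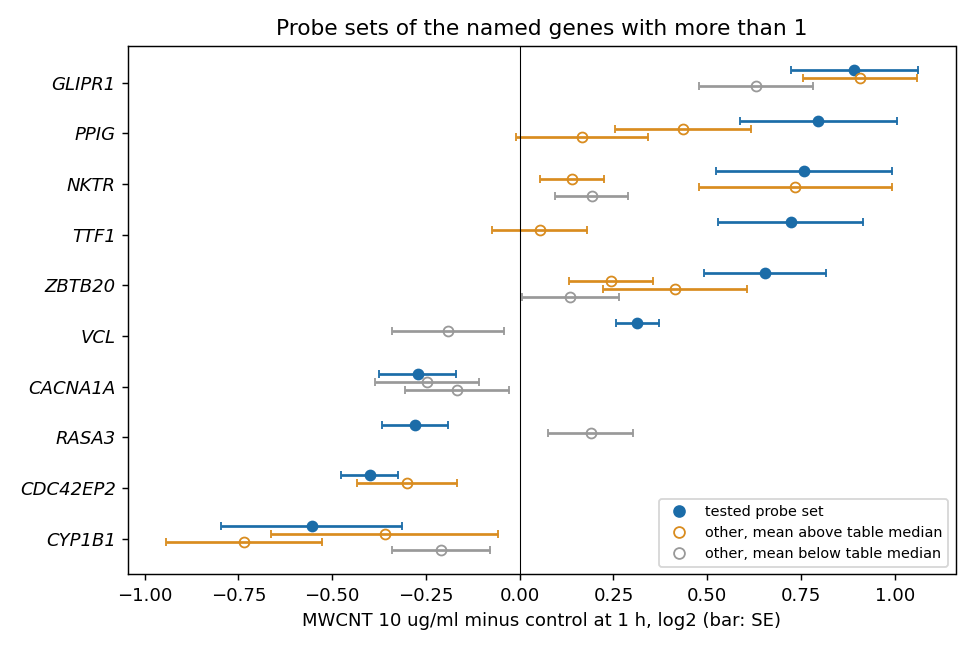
Difference between MWCNT 10 ug/ml and control at 1 h (log2, horizontal axis, bars are SE) for every probe set of the called or largest-difference genes that have more than 1. The probe sets of GLIPR1, CDC42EP2 and CYP1B1 lie on the same side of 0, those of VCL and RASA3 on both sides, and those of TTF1 stand at 0.72 and 0.05.

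EGFR, the receptor of epidermal growth factor, showed the same kind of split. Its tested probe set differed by 0.56 ± 0.32 without overlap (adjusted p = 0.502) and its second brightest by -0.01. The others, all below the table median, differed by -0.09, -0.05, -0.15 and -0.07, so only the tested probe set was above 0. EGFR passed in 1 of 15 alternatives, without replicate 1 of the 24 h controls (adjusted p = 0.0214). The highest adjusted p over these was 0.863. GBP1, a guanylate-binding protein induced by interferon, differed by 0.54 in its tested probe set (adjusted p = 0.21) and by 0.62 in the other (adjusted p = 0.00318 over all probe sets). Of 20 interferon response genes 0 passed, against 0.0669% of all genes, and the median was -0.03. IRF1, an interferon-induced transcription factor, differed by -0.17.

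Among genes without overlap and with the higher group mean above the table median, which leaves out dim genes such as CYP1A1, the largest differences below 0 after TIPARP, CYP1B1 and CDC42EP2 were those of SLCO4A1, an organic anion carrier, at -0.35 (adjusted p = 0.21) and NDRG1, a stress-responsive gene, at -0.29 (adjusted p = 0.21). The others named for size, RASA3, CACNA1A, AOPEP, TINAGL1 and TPRA1, lay between -0.28 and -0.26 and did not pass.

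Stress programmes often examined after particle exposure gave 0 called genes in each list. Over all genes 0.0669% were called, so lists of this size would mostly hold none in any case. Among 10 metallothionein and zinc genes, 8 had all MWCNT arrays below all controls and none above, against 10.7% and 9.31% of all genes, with a median of -0.15. MT1F, a metal-binding metallothionein, stood at 11.87, 11.82 and 11.78 in MWCNT cells and at 12.14, 12.05 and 12.00 in control cells, a difference of -0.24 (adjusted p = 0.445). These genes are close copies whose probe sets may share signal, and their deviations correlated at 0.44 on average, so they are not independent counts. SLC30A1, the zinc exporter, differed by -0.14 at 10 ug/ml and by -0.66 at 100 ug/ml from the shared controls. It passed at 100 ug/ml (adjusted p = 2.88e-07), where 1.70% of genes passed and 0.435% were lower. Among 19 targets and regulators of NRF2, the antioxidant factor, 8 were below without overlap and 0 above, with a median of -0.05. HMOX1, which degrades haem, stood at 8.97, 9.04 and 9.05 in MWCNT cells and at 9.28, 9.19 and 9.19 in control cells, a difference of -0.20 (adjusted p = 0.249). No NRF2 gene was called in either direction.

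Of 26 mitosis genes, 20 were above 0, against 44.1% of all genes, and 9 lay above the controls without overlap. In 1 the arrays lay below without overlap, and the median was 0.09. Deviations of the mitosis genes correlated at 0.23 on average, against 0.01 over all genes, so they are not independent counts. KIF23, a motor of cell division, differed by 0.26 (adjusted p = 0.25). The 20 DNA replication genes had a median of 0.00, with 2 above and 4 below. Their counts stand beside 9.31% and 10.7% over all genes. NF-kB and cytokine genes (0 of 23 called, median -0.02), the unfolded protein response (0 of 21, 0.01), heat shock genes (0 of 10, 0.04), hypoxia and glycolysis genes (0 of 16, -0.02), cholesterol synthesis (0 of 12, -0.04), oxidative phosphorylation (0 of 21, -0.02) and lysosomal genes (0 of 20, -0.01) all had medians within 0.06 of that of all genes. Notch and BMP early targets had a median of -0.11 with 0 of 11 called, and TGF-beta and matrix genes one of -0.04 with 0 of 21. All these counts of 0 stand beside 0.0669% called over all genes. IL6 and TNF, both dim, differed by -0.24 and -0.19 and did not pass.

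**Figure D5:**
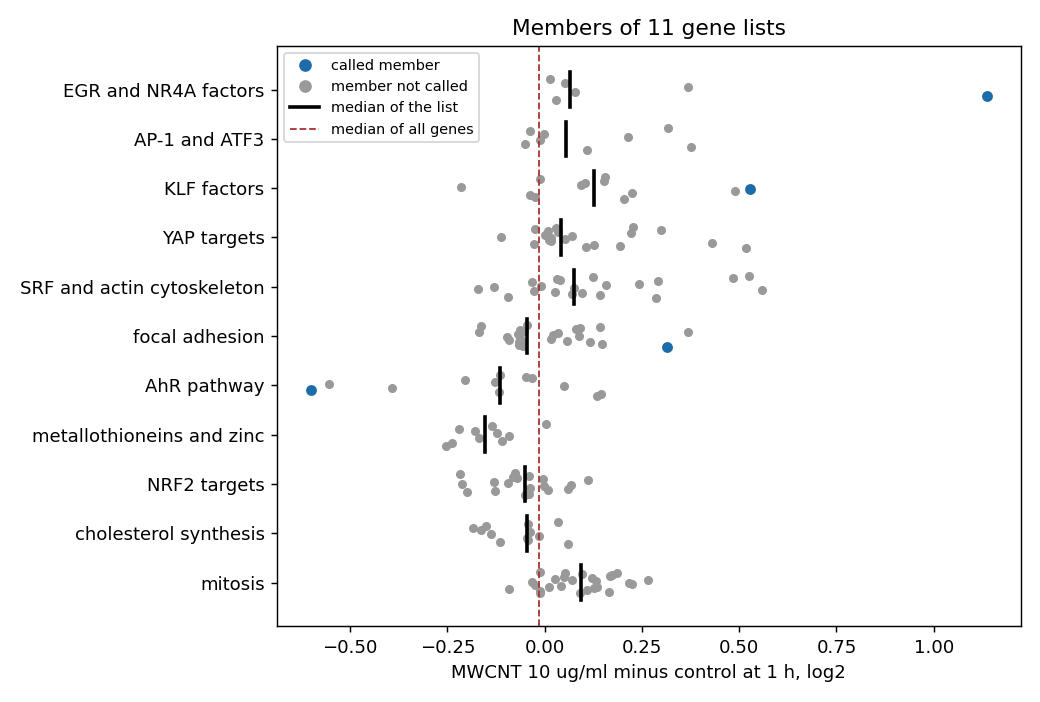
Difference between MWCNT 10 ug/ml and control at 1 h (log2, horizontal axis) for each member of 11 gene lists, with called members in blue, the list median as a black bar and the median of all genes, -0.02, as a dashed line. Called members stand at the edges of their lists, and the metallothionein list lies almost wholly below 0.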

How the data were processed

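RNA of SAE cells was labelled with a one-cycle Affymetrix kit, per the labels' protocols. Each deposited number is the log2 signal of a probe set on an array, which the authors computed with RMA per the submitters' processing notes (version not given in the sources used here). RMA corrects background, sets all arrays to the same distribution and sums probes, so a shift common to all genes is not visible. Of 22277 probe sets, 19064 had 1 gene symbol in the platform annotation, and each of 11963 genes was represented by its brightest probe set, judged by the average of 30 arrays. Differences were fitted with limma 3.58.1 (R 4.3.3; lmFit and eBayes, 1 mean for each of 10 groups, two-sided, Benjamini-Hochberg over all genes, threshold 0.05). The fit was checked on simulated data with independent genes and no deviating array, so that check does not cover these features of the data. With arrays, their number limits the precision. Files were read with pandas 2.3.3. Named are the called genes, up to 10 rises and 10 falls with no overlap and a higher group mean above the table median, up to 3 genes of each of 35 lists by p, and up to 5 further genes in other comparisons. The summary of 1 list is not reported here. Members and lists were chosen with earlier results of these data known. Same-numbered MWCNT and control arrays deviated from their group means with correlations of -0.24, -0.25 and 0.13, so numbers were not used as pairs. Alternatives were other sets of arrays, a replicate block, cyclic loess, a filter on dim genes, a variance trend, array weights and other uses of probe sets.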

Additional observations from a re-analysis of the deposited data

How the results depend on the processing

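All 8 called genes kept their direction in every alternative run, but most of these runs could not have reversed it. Alternatives that change only the fit leave the group means as they are. Where groups do not overlap, leaving out or reweighting single arrays cannot turn a difference round. The mean of all probe sets per gene could, and with it VCL fell to 0.06. The count of 8 called genes became 1 (TIPARP) with only the groups compared in the fit, 5 with the 1 h arrays alone and 13 with array weights, and the count ran from 2 to 58 when single arrays were left out. It was 4, 2 and 3 without MWCNT replicates 1 to 3, 5, 2 and 16 without control replicates 1 to 3, and 58 without replicate 1 of the 24 h controls, an alternative chosen after seeing the data. It was 8 with cyclic loess, 11 with the filter on dim genes and 7 with the replicate block, which lost VCL (adjusted p = 0.0594) and PPP1R14B (adjusted p = 0.0608) and added DDX52. With all 22215 probe sets tested, a run outside the 15 alternatives, 7 passed, CALD1 and GBP1 among them. In that run RBM47 and CDC42EP2 (adjusted p = 0.0511 for each) and PPP1R14B (adjusted p = 0.0761) did not pass. GLIPR1 passed there by another of its probe sets (adjusted p = 0.0137). TIPARP, KLF7, EGR3, VCL, RBM47, GLIPR1, CDC42EP2 and PPP1R14B passed in 15, 14, 12, 7, 8, 7, 6 and 6 of 15 alternatives. Between 10 and 100 ug/ml the 76 genes became 38 with only those groups, 118 with array weights and 40 to 85 with an array left out, with 40 and 46 without MWCNT 10 ug/ml replicates 1 and 3 and 47 without MWCNT 100 ug/ml replicate 3. Between the particles 1 gene became 4 with only those groups, 3 with the 1 h arrays, 3 with cyclic loess, 2 with the dim filter, 260 with array weights (107 higher, 153 lower) and 1 to 14 with an array left out, 14 being without replicate 1 of the 24 h controls. The replicate block gave 71 genes between doses and 1 between particles, and 0 in the comparison of times, as did all other alternatives. The restricted fits hold fewer arrays and fewer groups, and the cause of these shifts was not tested. With 3 arrays a group, small changes go undetected, and values near the low end of the scale are compressed by background.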
